A study of Arabidopsis thaliana with 9 samples.

Results

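The 43 genes described here had their highest level in KAR2-treated seeds of the AtKAI2OE line, above both groups of untreated seeds. They were picked by a rule on the measured levels, expressed as normalized counts, that is, read counts of a gene divided by a size factor of the library. A gene was kept if its mean over the 3 KAR2-treated libraries was at least 100 and at least 3 times both the mean of untreated AtKAI2OE and the mean of untreated Ara-1, and if its lowest KAR2-treated library lay above the highest of the other 6 libraries. Of 22731 genes in the normalized files, 12449 had a KAR2-treated mean of at least 100, 1525 of these were at least 3 times untreated AtKAI2OE, 46 of those were also at least 3 times Ara-1, and 43 were left when the libraries were not allowed to overlap. The levels of the 43 genes in KAR2-treated seeds relative to either control are therefore a description, and no test was made of them. The rule also capped both control means, so that neither could exceed the KAR2-treated mean divided by 3.

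The data were whole-seed transcriptomes of *Arabidopsis thaliana* from 9 RNA-seq libraries, 3 biological replicates in each of 3 groups. AtKAI2OE seeds overexpress *KAI2*, the karrikin receptor gene; the sample labels put the line in Col-0, whereas the study's methods describe *35S::AtKAI2* in the *htl-3* (*kai2*) mutant. Reads of the introduced copy cannot be separated from those of the native one. One group of AtKAI2OE seeds received 0.5 μM KAR2, a karrikin, in the medium and the other received 0 μM. The remaining group was wild type of the accession Ara-1 with 0 μM KAR2, so that accession and transgene cannot be told apart between the untreated groups, and no KAR2-treated Ara-1 was analysed here. All seeds were imbibed for 4 days at 4°C in the dark and then kept for 24 h in the dark at room temperature, after plating under light of 0.3 in the labels' units. Ara-1 reads were mapped to the Col-0 reference, and seeds were harvested whole, so that fewer cells of a type and less RNA per cell cannot be told apart.

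Counts assigned to genes ranged from 17479888 to 33306518 per library. Entries of the count matrix that name no gene took 13.4% to 35.1% of all counts, the most in Ara-1 replicate 1. The seed storage and oil body markers (9 of 9 measured) summed to between 10131 and 15539 in Ara-1, 3450587 and 4374041 in untreated AtKAI2OE and 380029 and 412556 with KAR2. The 4 epidermis markers summed to between 44081 and 50145, between 8208 and 10249, and between 23244 and 26859 in the same order, and 3 of 4 endosperm markers to between 19501 and 26109, 38571 and 93799, and 42823 and 49222. Markers of the endosperm list, and of the epidermis list, did not all have the same order of groups. *EPR1* had means of 4605, 62316 and 22206 and *EXPA2*, also of the endosperm list, 16986, 1032 and 24069, while of the epidermis list *PDF1* had 30260, 725 and 10200 and *ATML1* 2563, 2688 and 2740. The 3 mesophyll markers summed to between 34502 and 41948, 3228 and 5602, and 30551 and 32649, nearly all of it *RBCS1A*, since the means of *CAB3* and *LHCA1* were at most 16.1. The 3 seed coat markers (*BAN*, *TT12* and *TT2*) and 3 root hair markers had at most 3 reads over all 9 libraries. None of these markers was among the 43 genes, and the part of this difference in seed reserves and tissue in their levels was not tested.

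Karrikins are small butenolides of smoke. They act through KAI2, an alpha/beta-hydrolase which, with the F-box protein MAX2, targets the repressors SMAX1 and SMXL2 for degradation, and the same receptor is thought to perceive an endogenous ligand of plants. In seeds, KAI2 signaling promotes germination and early seedling growth in low light. Germination itself depends on expansion of the embryo and weakening of the tissues around it, in which enzymes and proteins of the cell wall act together with gibberellin, while phytochrome and the bHLH factor PIF1 connect the response to light.

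KAR2-treated levels of the 43 genes ran from 101 for the long non-coding RNA AT1G04983 to 46684 for *DGR2*, with a median of 253. Normalized counts are not divided by gene length, so that their order between genes is an order of reads and not of transcripts. The 43 genes together took 0.486%, 0.488% and 0.464% of gene counts in the 3 KAR2-treated libraries, against 0.0556% to 0.0652% in untreated AtKAI2OE and 0.0721% to 0.0960% in Ara-1. *DGR2* alone held 40.9%, 39.98% and 44.05% of their summed normalized counts with KAR2. All 43 had reads in each KAR2-treated library, whereas 30 to 41 had reads in a library of untreated AtKAI2OE and 35 to 39 in one of Ara-1. The median fold over untreated AtKAI2OE was 9.36 (42 genes) and the median fold over Ara-1 was 6.35 (39 genes), leaving out genes without a read in that control. Replicates with KAR2 had a median coefficient of variation of 8.24% for these genes and 6.23% for the other 12406 genes with a mean of at least 100.

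**Figure D1:**
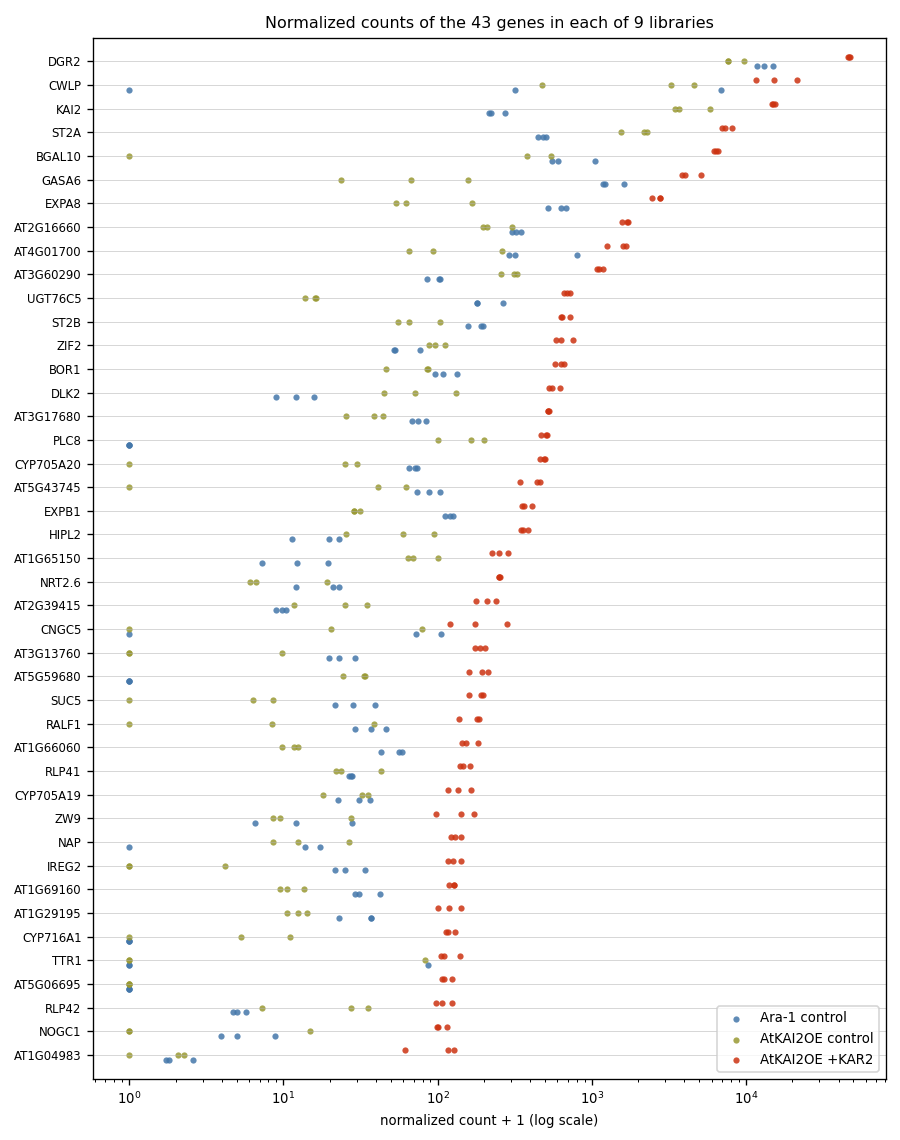
Normalized counts (x axis, log scale, 1 added so that 0 can be drawn) of the 43 genes (y axis) in each of the 9 libraries, 1 point per library, in Ara-1 control (blue), AtKAI2OE control (olive) and AtKAI2OE with KAR2 (red). Red points lie to the right of the others in each row because the rule required it, while the order of blue and olive points differs between genes, as in *KAI2* (Ara-1 lowest) and *GASA6* (untreated AtKAI2OE lowest).

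The 43 genes were a small share of those that stood at least 3 times above untreated AtKAI2OE. Of these 1525 genes, 1265 (83.0%) had an Ara-1 mean at or above the KAR2-treated mean and 214 (14.03%) had a lower one that was still within 3-fold, which leaves the 46 above. By the same thresholds on means, 764 genes stood highest in Ara-1 and 887 in untreated AtKAI2OE. Of the families drawn up, most had no member. Among genes with a KAR2-treated mean of at least 100, these included xyloglucan endotransglucosylases (0 of 18) and pectin-acting enzymes (0 of 25). Photosystem, antenna and electron transport genes (0 of 41), bHLH factors (0 of 55) and gibberellin genes (0 of 17) had none either. Families with members were expansins (2 of 12), cytochromes P450 (3 of 95), UDP-glycosyltransferases (1 of 55) and GASA peptides (1 of 6). The KAI2 pathway with karrikin markers had *KAI2* (1 of 10), and *DLK2* was added to it by its identifier. Of all such genes, 0.345% were members, and no family was tested.

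**Figure D2:**
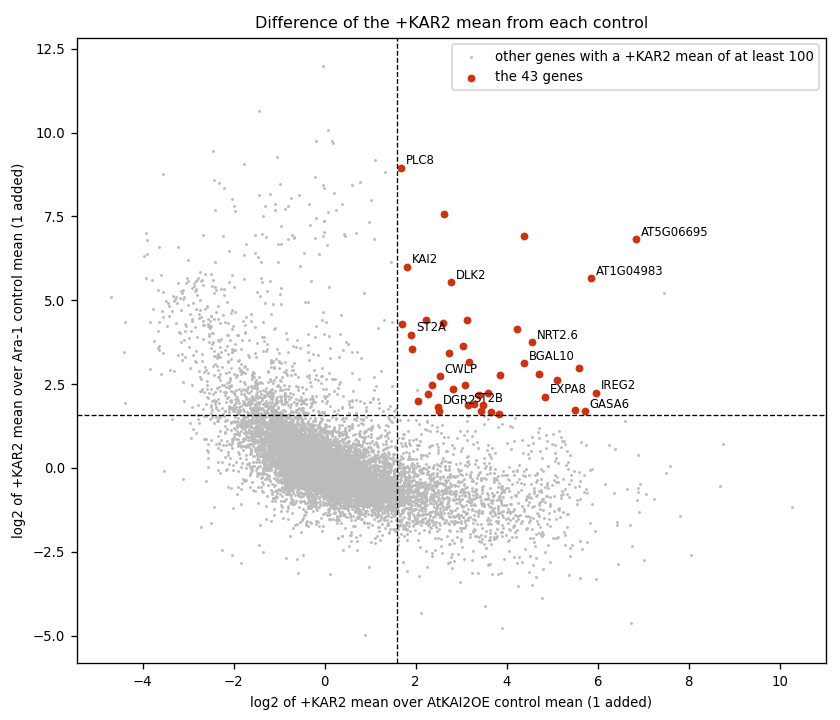
KAR2-treated mean over the AtKAI2OE control mean (x axis) and over the Ara-1 control mean (y axis), both as log2 with 1 added to each mean, for 12449 genes with a KAR2-treated mean of at least 100. Dashed lines mark 3-fold, and the 43 genes (red) lie in the sparse upper right corner, where *KAI2*, *DLK2* and *PLC8* stand high over Ara-1 and *GASA6* and *IREG2* stand far over untreated AtKAI2OE.

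The receptor gene *KAI2* (AT4G37470, chr4:17616659-17618656, minus strand) ranked the third of the 43 by normalized count. Positions are given in the RefSeq assembly TAIR10.1. Its normalized counts were 272, 214 and 221 in the Ara-1 libraries, 3686, 3449 and 5836 in untreated AtKAI2OE and 15017, 15582 and 14751 with KAR2. The groups did not overlap, and the KAR2-treated mean of 15117 ± 424 (SD, n = 3) was 3.5 times untreated AtKAI2OE and 64.1 times Ara-1. *DLK2* (AT3G24420, chr3:8862813-8865239, minus strand), a paralog of the receptor whose transcript is a common reporter of karrikin response, had the same order. It stood at 11, 14.7 and 7.98 in the Ara-1 libraries, 70.1, 43.9 and 131 in untreated AtKAI2OE and 619, 549 and 531 with KAR2. That is 6.93 times untreated AtKAI2OE and 50.4 times Ara-1, so that in both genes the Ara-1 libraries were the lowest of the 9.

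The reference gives AT3G24420 no gene name, so the name rests on primers. Both RT-qPCR primers that the study designed for *DLK2* matched the genome only once, inside AT3G24420. The forward *KAI2* primer matched only *KAI2*, and the reverse one matched *KAI2* and also AT1G73430 on chromosome 1. The primers are shown because they identify the pair of hydrolase genes, with no base in capitals.
DLK2 forward primer (chr3:8864545-8864562, minus strand): ggttgtgctgcttctatt
DLK2 reverse primer (chr3:8863483-8863502, plus strand): aatgatcgtgtcaatgtctt
KAI2 forward primer (chr4:17618049-17618066, minus strand): attggtgtcttggcttct
KAI2 reverse primer (chr4:17617407-17617424, plus strand): tgtagttgcttcggatgg

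The other genes of the pathway did not meet the rule. *KUF1*, an F-box gene induced by karrikins, had 209, 166 and 157 in the Ara-1 libraries, 15.2, 28.9 and 20.2 in untreated AtKAI2OE and 187, 183 and 197 with KAR2, so that KAR2-treated seeds and Ara-1 overlapped. *BBX20*, a B-box gene also used as a karrikin marker, had means of 177 ± 16.4, 134 ± 13 and 478 ± 50.9 in Ara-1, untreated and treated AtKAI2OE (SD, n = 3), which is 3.56 times untreated AtKAI2OE but 2.7 times Ara-1 and so just outside the rule. The repressor genes *SMAX1* (563 ± 105, 2289 ± 435 and 1767 ± 72.6) and *SMXL2* (182 ± 16.7, 465 ± 75.1 and 751 ± 8.07) were lowest in Ara-1 as well. *MAX2* had 301 ± 30.8, 394 ± 35.7 and 316 ± 14.

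*DGR2* (AT5G25460, chr5:8863224-8865677, plus strand), which encodes a DUF642 protein of the cell wall, had 15069, 11754 and 13039 in the Ara-1 libraries, 7649, 7619 and 9716 in untreated AtKAI2OE and 46051, 47164 and 46838 with KAR2. Its KAR2-treated libraries were among the most even of the 43 genes (coefficient of variation 1.23%), and the other groups lay between 7619 and 15069. A long non-coding RNA on the opposite strand, AT5G03985, covers 48.7% of *DGR2* but was listed at 0 in 8 of the 9 libraries. *BGAL10* (AT5G63810, chr5:25537074-25541529, plus strand), a beta-galactosidase that acts on xyloglucan, had 1051, 606 and 554 in the Ara-1 libraries, 0, 379 and 542 in untreated AtKAI2OE and 6208, 6608 and 6421 with KAR2. With KAR2 its mean was 8.7 times that of Ara-1, the largest margin over the higher control among the 10 genes with a mean of at least 1000, although 1 untreated AtKAI2OE library had no read of it.

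*GASA6* (AT1G74670, chr1:28053030-28054149, plus strand), a gibberellin-regulated peptide gene known to promote germination, had 1213, 1186 and 1621 in the Ara-1 libraries, 22.7, 66.3 and 156 in untreated AtKAI2OE and 5158, 3831 and 4016 with KAR2. *EXPA8* (AT2G40610, chr2:16948791-16950705, minus strand), an expansin that loosens cell walls, had 678, 522 and 634 in the Ara-1 libraries, 53.1, 61 and 165 in untreated AtKAI2OE and 2789, 2775 and 2469 with KAR2. *EXPB1* (AT2G20750, chr2:8940833-8942706, plus strand), a beta-expansin, had 119.6, 110.3 and 125 in the Ara-1 libraries, 30.3, 27.8 and 27.7 in untreated AtKAI2OE and 350.3, 412 and 361 with KAR2. These 3 genes shared one order, in which untreated AtKAI2OE was lowest, Ara-1 lay in between and KAR2-treated seeds were highest, without overlap. KAR2-treated means were 53, 28.8 and 13.1 times untreated AtKAI2OE but only 3.23, 4.38 and 3.16 times Ara-1. Without KAR2-treated replicate 1, *GASA6* did not meet the rule. The putative chitinase gene AT4G01700 (chr4:732313-733510, minus strand) had 804, 315 and 289.8 in the Ara-1 libraries, 92.9, 64.2 and 262 in untreated AtKAI2OE and 1679, 1258 and 1604 with KAR2, with 1 Ara-1 library more than 2 times as high as the other 2 of its group. Without Ara-1 replicate 2 or 3, AT4G01700 did not meet the rule.

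*CWLP* (AT3G22120, chr3:7794758-7796460, minus strand), a proline-rich protein linking cell wall and plasma membrane, ranked the second of the 43 by normalized count and was among the least even. Its normalized counts were 0, 315 and 6887 in the Ara-1 libraries, 4598, 3287 and 478 in untreated AtKAI2OE and 15208, 21435 and 11609 with KAR2. The long non-coding RNA AT3G22121 lies on the opposite strand and overlaps 1372 bases of *CWLP*, which is 80.6% of its length. AT3G22121 had 9769, 10443 and 7190 in Ara-1, 0, 1685 and 6355 in untreated AtKAI2OE and 15295, 12594 and 16905 with KAR2, so that in untreated and in treated AtKAI2OE it was highest in the library in which *CWLP* was lowest. The kit marks strand, but the sources used here do not say how strand entered the counting. Their sum had means of 11535 ± 2257, 5467 ± 1197 and 31015 ± 2793 in Ara-1, untreated and treated AtKAI2OE (SD, n = 3), and its KAR2-treated mean was 5.67 times untreated AtKAI2OE and 2.69 times Ara-1. The sum was still highest with KAR2 but did not reach 3 times Ara-1. Its lowest group was untreated AtKAI2OE, whereas *CWLP* alone had its lowest mean in Ara-1 (2401, against 2787 in untreated AtKAI2OE).

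Other loci also hold annotated genes close together. Of the 43 genes, 12 were overlapped by another annotated gene and 22 overlapped one or lay within 100 bases of one. *CNGC5* (AT5G57940, chr5:23456565-23460621, plus strand), a cyclic nucleotide-gated channel, had 0, 71.3 and 104 in the Ara-1 libraries, 0, 19.3 and 78.2 in untreated AtKAI2OE and 281, 173 and 119 with KAR2, the least even of the KAR2-treated values with a coefficient of variation of 43.4%. It lies 38 bases from *APO2* and 51 bases from AT5G57950 on the same strand, and the sum of the 3 genes was 638 ± 189.8, 1066 ± 321 and 815 ± 258, that is, not highest with KAR2. *TTR1* (AT5G45050, also named WRKY16), a disease resistance gene of the TIR-NBS-LRR class, had 0, 86 and 0 in the Ara-1 libraries, 0, 82.4 and 0 in untreated AtKAI2OE and 104, 109.8 and 138 with KAR2. With *CYTC6A*, which lies 5 bases away, its sum was 113 ± 46.3, 119 ± 68.1 and 137 ± 9.26. The KAR2-treated mean was only 1.21 times Ara-1 and 1.16 times untreated AtKAI2OE. The groups overlapped, since AtKAI2OE control replicate 1 (174) and Ara-1 replicate 2 (167) lay above all KAR2-treated libraries (128 to 147). The long non-coding RNA AT5G06695 had no read in any untreated library and 109, 107 and 123 with KAR2, but 99.7% of it lies within AT5G45030 on the same strand, and their sum was highest in Ara-1 (181 ± 6.91, 76.1 ± 31.7 and 156 ± 14.4). Sums of this kind, chosen after seeing the data, were made for 12 of the 43 genes. Of these 12, 6 no longer met the rule (*CWLP*, *CNGC5*, *TTR1*, AT5G06695, AT2G16660 and *CYP705A20*). Genes that were not summed stayed as they were, so that 37 of the 43 met it. For AT2G16660 and *CYP705A20* the added neighbours, *PRORP2* and *CYP705A21*, had reads in all 9 libraries (303 to 585 and 788 to 1609.8).

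**Figure D3:**
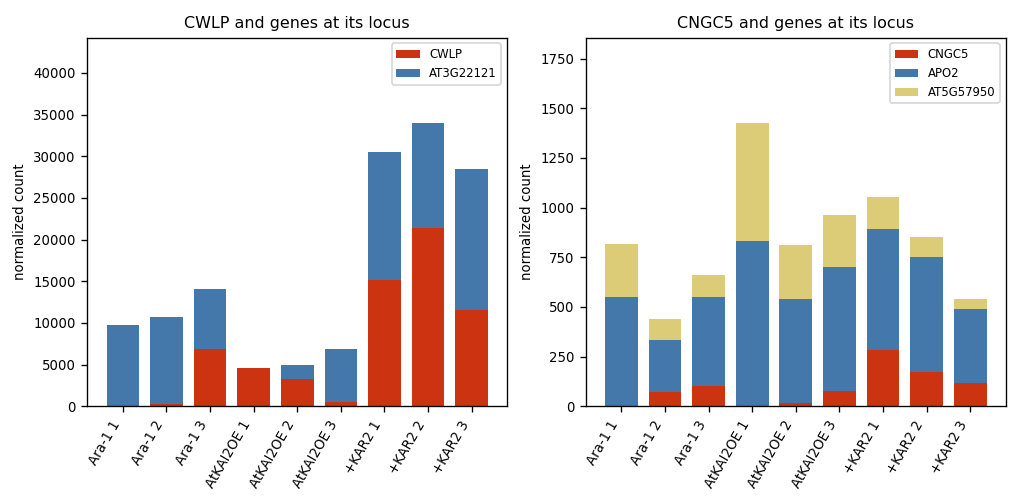
Normalized counts (y axis, stacked bars from 0) in each of the 9 libraries (x axis, replicates 1 to 3 of each group) for *CWLP* with the overlapping antisense RNA AT3G22121 (left) and for *CNGC5* with its neighbours *APO2* and AT5G57950 (right). The summed *CWLP* locus is highest with KAR2 (28514 or more, against 14077 or less), whereas the summed *CNGC5* locus is highest in an untreated AtKAI2OE library (1427).

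Enzymes of hormone and small-molecule metabolism are described together, a grouping by annotation made once the members were known. *ST2A* (AT5G07010, chr5:2174668-2176446, minus strand), a sulfotransferase that acts on hydroxylated jasmonate, had 508, 445 and 479 in the Ara-1 libraries, 2195, 1549 and 2278 in untreated AtKAI2OE and 8129.8, 7384 and 6975 with KAR2. *ST2B* (AT5G07000, chr5:2171367-2173015, minus strand), its close relative, lies 1652 bases away on the same strand with no gene between them and had 197, 157 and 192 in the Ara-1 libraries, 64.4, 54.6 and 102 in untreated AtKAI2OE and 723, 630.4 and 637 with KAR2. Both peaked with KAR2, but *ST2A* was lowest in Ara-1 and *ST2B* in untreated AtKAI2OE. All exon windows of 74 bases, close to a read in length, occurred once in the genome for both genes, so that they share no such stretch exactly. The 250 bases before each gene start are shown because the pair differed in their order between controls, with capitals for the letters TATAAA on either strand, the only searched motif in *ST2A*, while *ST2B* held none.
ST2A (chr5:2176447-2176696, minus strand): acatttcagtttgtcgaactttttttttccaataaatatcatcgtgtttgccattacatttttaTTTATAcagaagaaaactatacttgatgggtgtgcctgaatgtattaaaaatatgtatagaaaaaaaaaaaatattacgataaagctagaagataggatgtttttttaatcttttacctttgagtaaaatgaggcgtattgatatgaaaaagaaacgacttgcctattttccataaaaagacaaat
ST2B (chr5:2173016-2173265, minus strand): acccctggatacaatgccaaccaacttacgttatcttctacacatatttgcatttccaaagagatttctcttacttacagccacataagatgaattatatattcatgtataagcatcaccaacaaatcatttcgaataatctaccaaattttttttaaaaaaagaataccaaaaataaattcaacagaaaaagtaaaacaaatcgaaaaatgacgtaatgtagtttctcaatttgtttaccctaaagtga

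The 2OG-Fe(II) oxygenase gene AT3G60290 (chr3:22282423-22284706, plus strand) followed the order of *ST2A*, with 85, 101 and 103 in the Ara-1 libraries, 326, 310.3 and 256 in untreated AtKAI2OE and 1184, 1123 and 1078 with KAR2. The UDP-glycosyltransferase gene *UGT76C5* (AT5G05890, chr5:1772415-1774187, plus strand) followed that of *ST2B*, with 266, 180.1 and 179.6 in the Ara-1 libraries, 15.2, 12.8 and 15.1 in untreated AtKAI2OE and 725, 665 and 693 with KAR2. The latter had one of the widest ranges between the AtKAI2OE groups (48.3-fold). The cytochromes P450 *CYP705A20* and *CYP705A19* are neighbours 361 bases apart on chromosome 3. *CYP705A20* had 72.4, 64.7 and 70.2 in the Ara-1 libraries, 0, 28.9 and 24 in untreated AtKAI2OE and 499.7, 487 and 463 with KAR2. *CYP705A19* had 29.9, 35.3 and 21.6 in the Ara-1 libraries, 17.1, 34.2 and 31.5 in untreated AtKAI2OE and 116, 163 and 134 with KAR2, so that both controls overlapped. *CYP716A1* had no read in Ara-1, 0, 4.28 and 10.1 in untreated AtKAI2OE and 129, 113 and 115 with KAR2, at least 129-fold higher than Ara-1 when 3 counts over the group are taken as the floor. *NOGC1*, annotated as a flavin-containing monooxygenase, had 115, 99.999 and 97.6 with KAR2 and at most 13.9 in any untreated library. It did not meet the rule when only the entry named by its identifier was counted.

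Several of the genes are annotated as transporters or channels, and were grouped here by annotation once the members were known. AT2G16660, of the major facilitator superfamily, had 305, 320.5 and 349.6 in the Ara-1 libraries, 197, 209.7 and 301 in untreated AtKAI2OE and 1727, 1708 and 1583 with KAR2. *ZIF2* (AT2G48020), a zinc transporter of the vacuole, had 51.9, 75.7 and 51.1 in the Ara-1 libraries, 87.2, 95.2 and 111 in untreated AtKAI2OE and 628, 758 and 582 with KAR2. *BOR1* (AT2G47160), a boron exporter, had 107, 134 and 95 in the Ara-1 libraries, 45.5, 84.5 and 85.7 in untreated AtKAI2OE and 629, 574 and 657 with KAR2. In these 3 genes the untreated groups differed by less than 2-fold in their means and the KAR2-treated mean was at least 5 times both. *NRT2.6* (AT3G45060), of the high-affinity nitrate transporters, had 22, 11 and 20 in the Ara-1 libraries, 5.69, 18.2 and 5.04 in untreated AtKAI2OE and 251, 249.997 and 248 with KAR2, 14.1 times the higher control, with a coefficient of variation of 0.733% between KAR2-treated replicates. *SUC5*, a sucrose-proton symporter, had 20.5, 27.2 and 38.3 in the Ara-1 libraries, 0, 5.35 and 7.56 in untreated AtKAI2OE and 195, 191 and 159.96 with KAR2. *IREG2* (FPN2), of the ferroportin family of metal transporters, had 33, 24.3 and 20.8 in the Ara-1 libraries, 0, 3.21 and 0 in untreated AtKAI2OE and 124, 116 and 142 with KAR2. For the last 2, untreated AtKAI2OE had few or no reads. The POLLUX-like ion channel gene AT5G43745 had 72.4, 102 and 87 in the Ara-1 libraries, 0, 61 and 40.3 in untreated AtKAI2OE and 461, 343 and 441 with KAR2, and *CNGC5* is described above.

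Genes of signaling and defence, also grouped by annotation once the members were known, come next, most of them with few reads. *PLC8* (AT3G47290, chr3:17420397-17424342, plus strand), a phospholipase C, had no read in the 3 Ara-1 libraries, 100.4, 164 and 198 in untreated AtKAI2OE and 509.6, 471 and 501 with KAR2. The leucine-rich repeat kinase gene AT5G59680 likewise had no read in Ara-1, 32.2, 23.5 and 32.8 in untreated AtKAI2OE and 212, 159 and 193 with KAR2. Against a floor of 3 counts over the Ara-1 group, KAR2-treated seeds were at least 535-fold higher for *PLC8* and at least 203-fold higher for AT5G59680, which covers counting error only. Genes without any read in Ara-1 made up 4 of the 43 (9.30%) and 0.345% of all genes with a KAR2-treated mean of at least 100, and the rule favours such genes. Whether a sequence difference between Ara-1 and the reference plays a part was not tested.

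The receptor-like proteins *RLP41* and *RLP42* lie 3747 bases apart. *RLP42*, which perceives fungal polygalacturonases, had 4.72, 3.68 and 3.99 in the Ara-1 libraries, 26.5, 34.2 and 6.3 in untreated AtKAI2OE and 96.3, 107 and 124 with KAR2. *RLP41* had 26.8, 25.7 and 26.3 in the Ara-1 libraries, 20.8, 41.7 and 22.7 in untreated AtKAI2OE and 139, 162 and 146 with KAR2, so that its untreated groups overlapped. Both are among the 5 genes with exon windows of 74 bases that recur in the genome: 79.2% of windows were unique for *RLP42* and 92.8% for *RLP41*, 89.2% for *NOGC1*, 93.3% for AT1G66060 and 96.5% for *CYP705A19*. Reads that match several places had been removed by the authors, so levels of these genes are less certain. *RALF1*, a secreted peptide that inhibits cell expansion through the receptor kinase FERONIA, had 45.6, 36 and 27.9 in the Ara-1 libraries, 0, 7.49 and 37.8 in untreated AtKAI2OE and 180.1, 185 and 137 with KAR2. AT3G13760, a C1-domain protein, had 18.9, 22.1 and 27.9 in the Ara-1 libraries, 0, 0 and 8.82 in untreated AtKAI2OE and 188, 202 and 175 with KAR2.

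*NAP* (AT1G69490), a NAC transcription factor gene known from leaf senescence, had 0, 16.2 and 12.8 in the Ara-1 libraries, 7.58, 25.7 and 11.3 in untreated AtKAI2OE and 129, 141 and 120.4 with KAR2. AT2G39415, annotated as an F-box protein, had 9.44, 8.82 and 7.98 in the Ara-1 libraries, 34.1, 10.7 and 24 in untreated AtKAI2OE and 239, 209 and 177 with KAR2. Both were low in all 6 untreated libraries. The TRAF-like genes AT1G65150 and *ZW9* were below 100 normalized counts in all 6 untreated libraries. AT1G65150 had 6.29, 18.4 and 11.2 in the Ara-1 libraries, 68.2, 63.1 and 99.6 in untreated AtKAI2OE and 248, 287 and 224 with KAR2, with Ara-1 lowest. *ZW9* had 26.8, 11 and 5.59 in the Ara-1 libraries, 7.58, 8.56 and 26.5 in untreated AtKAI2OE and 142, 96.7 and 172 with KAR2, with overlap of the untreated groups. *HIPL2*, a relative of hedgehog-interacting proteins of animals, had 18.9, 22.1 and 10.4 in the Ara-1 libraries, 24.6, 58.8 and 94.5 in untreated AtKAI2OE and 345, 388 and 359 with KAR2. AT3G17680, of the KIP1-like family, was the most even of the 43 with KAR2 (0.691%) and had 74, 83.8 and 67.1 in the Ara-1 libraries, 43.6, 24.6 and 37.8 in untreated AtKAI2OE and 521, 524 and 517 with KAR2. AT1G66060, AT1G69160 and AT1G29195 had KAR2-treated means of 159 ± 20.4, 124 ± 5.69 and 119.6 ± 20.6 (SD, n = 3), each with untreated AtKAI2OE lowest. The long non-coding RNA AT1G04983 had 1.57, 0.735 and 0.798 in the Ara-1 libraries, 0, 1.07 and 1.26 in untreated AtKAI2OE and 128, 60.9 and 115 with KAR2. Its control groups held 3 reads (Ara-1) and 2 reads (AtKAI2OE) in all, so that no fold is given, and it did not meet the rule without KAR2-treated replicate 1 or 3.

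The comparison of Ara-1 with AtKAI2OE among untreated seeds does not use KAR2-treated libraries, and was tested. It is not independent of the rule, which had capped both control means and held these 6 libraries below the lowest KAR2-treated one. The 43 genes split in both directions. Of 36 genes that passed the filter on counts, 14 were higher in Ara-1 (38.9%, against 37.9% of all 17905 genes tested) and 9 were lower (25.0%, against 31.8%) by edgeR's quasi-likelihood test at an adjusted p under 0.05, while 13 did not pass. Together 63.9% of the 36 passed, against 69.6% of all genes. These shares were near the background of all genes. The median log2 fold change, given as Ara-1 minus AtKAI2OE, was 0.78 for the 36 genes and 0.16 for all genes. The 7 genes not tested were AT2G39415, *CYP716A1*, *TTR1*, AT5G06695, *RLP42*, *NOGC1* and AT1G04983.

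**Figure D4:**
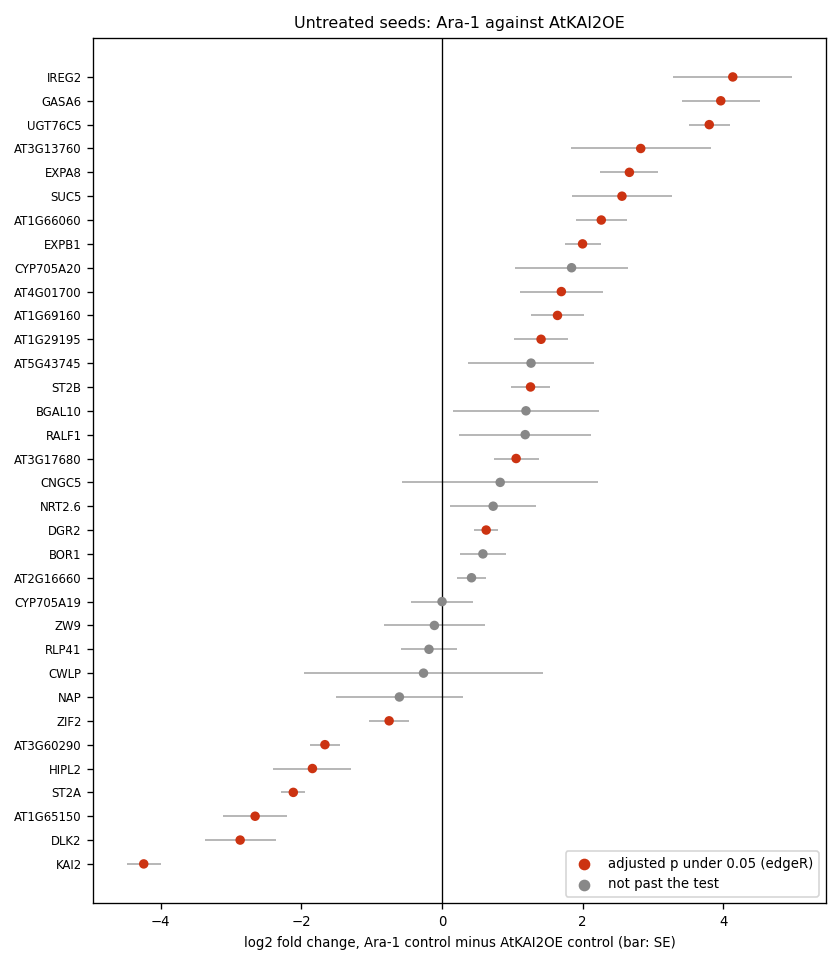
Log2 fold change of Ara-1 control minus AtKAI2OE control (x axis, bars are the SE of the fit) for 34 of the genes (y axis), in red where the adjusted p of edgeR is under 0.05. *PLC8* and AT5G59680, without a read in Ara-1, are left out. *IREG2* (4.14, with 3 reads in untreated AtKAI2OE) and *GASA6* (3.96) are at the upper end and *DLK2* (-2.87) and *KAI2* (-4.24) at the lower end.

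*GASA6* and both expansin genes were higher in Ara-1 than in untreated AtKAI2OE. *GASA6* was higher by a log2 fold change of 3.96 (SE 0.56, adjusted p = 0.000516 by edgeR), *EXPA8* by 2.67 (SE 0.41, adjusted p = 0.000831) and *EXPB1* by 1.999 (SE 0.26, adjusted p = 0.000325). *UGT76C5* (3.80, SE 0.29, adjusted p = 2.75e-05) and *IREG2* (4.14, SE 0.85, adjusted p = 0.00335) were higher as well. The size for *IREG2* is uncertain, since untreated AtKAI2OE held 3 reads of it, all in replicate 2, and the log2 fold change was 7.55 without that library. All 3 Ara-1 libraries lay above all 3 of untreated AtKAI2OE in each of these 5 genes. The remaining higher genes were AT3G13760, *SUC5*, AT1G66060, AT4G01700, AT1G69160, AT1G29195, *ST2B*, AT3G17680 and *DGR2*, with log2 fold changes from 2.83 to 0.63. Without overlap of replicates, 18 of the 36 genes were higher in Ara-1 (against 41.7% of all genes tested) and 9 were lower (against 33.9%).

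On the lower side, *KAI2* had a log2 fold change of -4.24 (SE 0.24, adjusted p = 8.54e-06 by edgeR), *DLK2* -2.87 (SE 0.50, adjusted p = 0.00155) and *ST2A* -2.11 (SE 0.17, adjusted p = 3.67e-05). AtKAI2OE was made to overexpress *KAI2*, so that the direction for this gene was given in advance. AT1G65150, *HIPL2*, AT3G60290 and *ZIF2* were lower with -2.66, -1.84, -1.66 and -0.75. *PLC8* and AT5G59680 passed with adjusted p = 0.000126 and 0.000387, and untreated AtKAI2OE was at least 167-fold and at least 32.0-fold higher than the floor of Ara-1. *ST2A* and *ST2B* thus differed in opposite directions between the untreated groups, at 1 locus. Of 12 genes of the KAI2 pathway and its markers, 3 were higher (*KUF1*, *D14* and *SMXL3*), 7 were lower, the overexpressed *KAI2* itself among them, and 2 did not pass. Of all 17905 genes tested, 37.9% were higher and 31.8% lower.

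Some of these calls rest on single libraries, and on simulated data the same fit gave a larger share of false calls than 0.05. Leaving out 1 library at a time removed the call in 8 of 23 genes, always with the same direction. AT3G13760 lost it without any 1 of the Ara-1 libraries or without AtKAI2OE replicate 1 or 2 (log2 fold change 2.12 to 2.97, adjusted p 0.0759 to 0.110 by edgeR). AT4G01700 lost it without Ara-1 replicate 1 or AtKAI2OE replicate 1 or 2 (1.104 to 1.41, adjusted p 0.113 to 0.136), *ZIF2* without Ara-1 replicate 1 or 3 or AtKAI2OE replicate 2 or 3 (-0.79 to -0.65, adjusted p 0.0714 to 0.159), and *HIPL2* without Ara-1 replicate 1 or 3 or AtKAI2OE replicate 3 (-1.89 to -1.38, adjusted p 0.0558 to 0.0824). AT3G17680 lost it without Ara-1 replicate 2 or 3 (0.95 to 1.13, adjusted p 0.0522 to 0.0866), *DGR2* without AtKAI2OE replicate 1 or 2 (0.50 to 0.55, adjusted p 0.0505 to 0.0777), and *SUC5* (2.31, adjusted p = 0.0636) and AT1G29195 (1.29, adjusted p = 0.0654) without Ara-1 replicate 3. Without AtKAI2OE replicate 3, log2 fold changes rose to 7.43 for AT3G13760, 2.53 for AT4G01700, 3.34 for *EXPA8* and 4.75 for *GASA6*, all still called.

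AtKAI2OE control replicate 1 had no read of 13 of the 43 genes, against 2 and 4 in replicates 2 and 3. That is 30.2% of the 43, where 2.62% of all genes with a KAR2-treated mean of at least 100 were at 0 in that library. It was the library with the second fewest counts assigned to genes (18545549), after Ara-1 replicate 1 (17479888), which had reads of 35 of the 43. Whether depth plays a part was not tested. *BGAL10*, *CYP705A20* and AT5G43745 were at 0 there and at 24.0 or more in the other 2 libraries of the group. The rule favours genes that are at 0 in a control, and it kept 41 of the 43 without this library, leaving out *PLC8* and *TTR1*.

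No searched motif was found in more than 14 of the 43 promoters. In the 250 bases before the annotated gene start, 14 short motifs were searched on both strands, and 28 of the 43 promoters held at least 1 of them. The G-box CACGTG, bound by bHLH and bZIP factors such as PIF1, was in 4 (*ZIF2*, AT1G65150, *SUC5* and *NAP*), which is 9.30%, against 5.90% of all 32543 promoters and 8.17% of the 12317 other genes with a KAR2-treated mean of at least 100. The ABA-responsive element ACGTGTC, which overlaps the G-box in *ZIF2* and *SUC5*, was in 4 (9.30% against 3.36% and 4.95%). TATAAA was in 14 (32.6% against 46.1% and 45.3%), TGTCTC of auxin response in 8 (18.6% against 11.04% and 10.2%), GATAAG in 6 (13.95% against 12.4% and 12.3%) and the gibberellin-response letters TAACAAA in 5 (11.6% against 15.9% and 15.8%). TGGGCC was in 1 (2.33% against 12.5% and 20.03%), GCCGCC in 2 (4.65% against 1.90% and 2.09%), TTGACC in 3 (6.98% against 11.8% and 11.8%) and TAAATGCA in 1 (2.33% against 1.53% and 1.53%). AAACCCTA, TAAATGTA, AAAATATCT and TTTCCCGC were in none, and in 4.61%, 2.86%, 2.23% and 0.581% of all promoters. A match describes letters in this window and no binding was measured.

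The promoters of *ZIF2* and *SUC5* are shown for the G-box with the overlapping element, and that of *DLK2*, which had the same order of groups as *KAI2*, for the only match of TAAATGCA, here on the reverse strand. Capitals mark the searched motifs, which in *SUC5* also include TATAAA and GATAAG and in *ZIF2* also TGTCTC.
ZIF2 (chr2:19643771-19644020, plus strand): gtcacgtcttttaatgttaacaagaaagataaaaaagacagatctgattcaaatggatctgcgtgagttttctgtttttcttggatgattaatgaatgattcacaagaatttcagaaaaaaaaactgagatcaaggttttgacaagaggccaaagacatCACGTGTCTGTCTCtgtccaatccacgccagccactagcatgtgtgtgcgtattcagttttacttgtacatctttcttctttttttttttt
SUC5 (chr1:27058131-27058380, plus strand): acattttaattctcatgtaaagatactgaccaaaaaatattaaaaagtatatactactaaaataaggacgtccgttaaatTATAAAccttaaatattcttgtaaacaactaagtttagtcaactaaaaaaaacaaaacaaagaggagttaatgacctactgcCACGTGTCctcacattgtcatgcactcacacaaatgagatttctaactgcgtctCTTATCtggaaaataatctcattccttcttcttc
DLK2 (chr3:8865240-8865489, minus strand): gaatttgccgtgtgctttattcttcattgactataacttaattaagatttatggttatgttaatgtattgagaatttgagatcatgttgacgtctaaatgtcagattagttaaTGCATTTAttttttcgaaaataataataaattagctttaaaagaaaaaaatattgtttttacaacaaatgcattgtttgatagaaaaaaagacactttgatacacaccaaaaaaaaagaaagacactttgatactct

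Several genes lay close to a threshold of the rule. At the minimum mean, AT1G04983 (101), *NOGC1* (104.0) and *RLP42* (109) were inside, and *sks3* (99.8), *PP2-A5* (95.9) and *NAC1* (91.3) outside. At 3 times untreated AtKAI2OE, *PLC8* (3.21), AT1G65150 (3.29) and *KAI2* (3.50) were inside, and AT5G06845 (2.97), AT3G62530 (2.87) and AT5G45095 (2.80) outside. Among the genes inside, *KAI2* was thus the third closest to that threshold. At 3 times Ara-1, AT1G66060 (3.07), *EXPB1* (3.16) and AT4G01700 (3.22) were inside, and AT3G43670 (2.91), AT1G75580 (2.82) and *ADS4* (2.79) outside. AT5G65750, AT1G55152 and *HK2* met the thresholds on means but had a KAR2-treated library that did not lie above the other 6. By contrast, the lowest KAR2-treated library of *CNGC5* (1.14 times), *TTR1* (1.21 times) and AT4G01700 (1.56 times) was only little above the highest untreated one.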

How the data were processed

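Members, gene lists, motifs and tests were chosen with earlier results of these data known. RNA of whole seeds was made into directional libraries and sequenced as single-end reads. Per the labels and the study's methods, the authors mapped reads to TAIR10 with HISAT2 2.1.0, kept uniquely mapped reads with SAMtools 1.10, assembled transcripts with StringTie 2.1.3 and extracted counts per gene, which were deposited as whole numbers. The authors also deposited a normalized signal per library, the count divided by a size factor (DESeq2 1.18.1 in the submitters' processing notes), which holds within 0.1% for 100% of values.

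Entries were summed per gene, and 1105 entries that name no single gene were left out (13.4% to 35.1% of counts). Levels are the normalized values, and a fold is a ratio of group means. Of 32830 genes in the count matrix, 32545 matched a locus of RefSeq TAIR10.1, including all 43, whose positions, promoters and names come from it. For untreated seeds, the 6 libraries were fitted with edgeR 4.0.16 in R 4.3.3 (filterByExpr with a minimum count of 10 and a total of 15, TMM scaling, quasi-likelihood test, Benjamini-Hochberg adjustment at 0.05). SE was derived from the log2 fold change and its F value. The fit was tested on simulated data, where false calls were a larger share of calls than 0.05 and few changes of 2-fold or less were called. What a shared replicate number means is not given in the labels, and where replicates do not come from separate batches of seeds, p-values measure only the spread between samples. Counts of replicate pairs differed beyond what sampling would give, with a chi-square of 11.2 to 121 per degree of freedom. Floors are 3 counts over a group.

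Genes with fuller values were the 10 highest by KAR2-treated mean, the 10 largest folds over the higher control among means of at least 1000 (the same 10), up to 4 per family, those nearest each threshold, the largest tested changes, genes of the KAI2 pathway and the most and least even. Alternatives were other folds and minimum means, no overlap condition, TMM or library-size scaling, other filters, DESeq2 1.42.0, limma 3.58.1 on normalized values with 1 or 10 added, all 9 libraries, a replicate block, only the entry named by the identifier, no organelle genes, and each library left out.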

Additional observations from a re-analysis of the deposited data

Results flagged for a closer look

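Entries that the authors assembled but that carry no single gene identifier were outside the comparisons above, and 6 of 1105 met the same rule. Their KAR2-treated means were 3215, 1449, 458, 306, 259.7 and 153 normalized counts, above those of both untreated groups. The highest had 59.8, 157 and 153 in Ara-1, 635, 1043 and 50.4 in untreated AtKAI2OE and 3909, 2390.2 and 3346 with KAR2, that is 5.58 times untreated AtKAI2OE. The second had 15.7, 8.09 and 8.78, 0, 8.56 and 0 and 1157, 1545 and 1645 in the same order, 133 times Ara-1. The fourth had no read in any of the 6 untreated libraries and 89.6, 229 and 599 with KAR2. The files give these entries no position or name, so what they are was not determined. Groups of 3 libraries are too small for a search for single outlying libraries.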

How the results depend on the processing

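The number of genes kept by the rule depended on its thresholds. It was 118 at 2 times and 21 at 5 times the controls, 24 with a minimum mean of 200 and 71 with counts scaled by library size only, in place of 43. All 43 were among the 118 and the 71. With a minimum mean of 50 it was 62, without the condition on overlap 46, with TMM scaling 53 (43 shared) and counting only the entry named by the identifier 45 (42 shared). Leaving out 1 library gave 40 to 52 genes, of which 38 to 43 were shared. Summing genes at a locus, added after seeing the data, gave 37, but it changed only 12 of the 43, of which 6 were lost.

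In untreated seeds, requiring at least 10 counts in every library left 15 of the genes, with 7 higher in Ara-1 and 5 lower in place of 14 and 9, since fewer genes were tested. Of all 13766 genes tested under that filter, 4827 were higher and 4810 lower. Leaving out 1 library gave 10 to 16 higher and 7 to 9 lower, and for all genes 6052 to 6963 higher and 5079 to 6053 lower. Scaling by library size only shifted the median log2 fold change of all genes from 0.16 to 0.52, so that 64.2% of all calls were higher in Ara-1 in place of 54.4%, and for the 43 genes 15 were higher and 7 lower. Deviations of same-numbered libraries correlated at 0.05, 0.29 and 0.04, and those of differently numbered libraries at -0.14 to 0.08. The pair of replicates 2 was the highest, so these values do not settle whether replicate numbers pair the samples. With the replicate number as a block, 10 genes were higher and 7 lower (6547 and 5489 of all genes). No value reversed its direction. Of 23 called genes, 10 lost the call in at least 1 alternative, among them AT3G60290 when only the entry named by its identifier was counted (-1.05, adjusted p = 0.395 by edgeR). In untreated seeds 7 genes did not pass the filter on counts, 1 of them *TTR1*, whose 117 and 77 counts lay in 1 library of each group.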
